A study of Mus musculus with 6 samples.

Results

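The cytosolic ribosomal proteins are the protein components of the ribosomes that translate nuclear mRNAs. They were taken here as every probe set with a single gene symbol that starts with Rpl or Rps followed by a digit, a p or an a, without the Rps6k kinases and without symbols that hold -ps. The rule gave 106 of 45101 probe sets, which stand for 50 genes. Of them, 48 probe sets of 26 genes belong to the large (60S) subunit by name and 57 probe sets of 23 genes to the small (40S) subunit. The remaining one is Rps19bp1, which encodes a binding partner of Rps19 and is no ribosomal protein itself. A further 31 ribosomal protein genes, among them Rpl3, Rpl5, Rpl10 and Rpl36a, are measured only by probe sets that carry several symbols, and were not included.

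Mouse embryonic stem (ES) cells of 3 genotypes were profiled on 6 Affymetrix arrays, with 2 arrays a genotype from independent experiments: wild type line W4, heterozygous NcGFP ki/+ and homozygous NcGFP ki/ki knock-in cells. The labels do not spell out the NcGFP allele, the parental line of the knock-in cells or the number of clones. All cultures received LIF, the cytokine that keeps mouse ES cells undifferentiated, and stood on a plate labelled diluted EMFI, read here as a thinned layer of embryonic fibroblast feeder cells. The authors deposited linear intensities after GCRMA with quantile normalization, and every level below is their log2. A difference is a difference of log2 intensity. Levels are not compared between probe sets, because each probe set has its own response.

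Each ribosome holds 1 copy of nearly every ribosomal protein, and growing cells make these proteins in matched amounts, so their mRNAs are abundant and usually vary little. Many of these mRNAs begin with a C followed by a run of C and T bases, the 5′ terminal oligopyrimidine tract, through which mTOR signalling regulates their translation. ES cells divide fast, and some members also have roles outside the ribosome: Rpl11 binds Mdm2, the ubiquitin ligase of p53, and Rps6 is the classic substrate of the S6 kinases.

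The start regions of 8 core members are shown to let the genes at both ends of the order described below be compared. They are the 4 lowest (Rpl37, Rpl38, Rps26 and Rpl27) and the 4 highest (Rpl12, Rpl4, Rpsa and Rps3) in ki/ki replicate 2 among the 32 core genes with a kept probe set and exactly 1 promoter entry, so they were chosen by their values. Each line gives the 40 bases before the annotated start and the 20 bases from it, 5′ to 3′ on the strand of the gene, from RefSeq on GRCm38.p6. Capitals mark a pyrimidine tract, searched on the strand of the gene as a C followed by at least 4 bases that are each C or T and beginning within 10 bases of the start.
Rpl37: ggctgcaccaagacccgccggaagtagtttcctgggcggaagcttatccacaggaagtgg
Rpl38: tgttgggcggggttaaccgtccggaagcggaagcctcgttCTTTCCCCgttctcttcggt
Rps26: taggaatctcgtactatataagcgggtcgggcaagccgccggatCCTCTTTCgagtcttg
Rpl27: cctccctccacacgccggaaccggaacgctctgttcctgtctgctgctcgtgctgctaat
Rpl12: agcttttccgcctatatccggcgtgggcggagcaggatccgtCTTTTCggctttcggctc
Rpl4: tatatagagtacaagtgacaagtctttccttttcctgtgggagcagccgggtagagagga
Rpsa: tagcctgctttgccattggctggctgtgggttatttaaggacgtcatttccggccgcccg
Rps3: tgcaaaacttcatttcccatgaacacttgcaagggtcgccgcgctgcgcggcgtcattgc

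These windows lie at chr15:5116573-5116632 plus for Rpl37, chr11:114668540-114668599 plus for Rpl38, chr10:128626487-128626546 minus for Rps26 and chr11:101442205-101442264 plus for Rpl27. The others lie at chr2:32961672-32961731 plus for Rpl12, chr9:64173347-64173406 plus for Rpl4, chr9:120127726-120127785 plus for Rpsa and chr7:99483690-99483749 minus for Rps3. A tract stood in 2 of the 4 lowest and in 1 of the 4 highest. Of the 44 member genes with a promoter entry, 27 (61.4%) hold a tract, against 34.4% of all 27025 genes with an entry. The motif CCGGAAG, searched on both strands of 300 bases around the start, stood in 21 (47.7%) of the member genes and in 9.93% of all genes. A match describes the letters in the window only. Among core members with a promoter entry, the median difference from W4 in ki/ki replicate 2 was -0.36 for the 23 genes with a tract and -0.32 for the 14 without. It was -0.32 for the 19 genes with CCGGAAG and -0.37 for the 18 without. For AAGATGGC, searched in the same way and present in 9.09% of member genes and 3.19% of all, it was -0.71 for the 3 genes with it and -0.33 for the 34 without. The 3 genes ran from -0.74 to -0.12, inside the range of -2.25 to 0.29 of the 34. These medians are descriptions with no test.

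A probe set was kept for testing where its log2 intensity exceeded 4 in at least 2 of the 6 arrays. This left 103 member probe sets of 49 genes among 37950 probe sets, and the 3 that were dropped were a probe set each of Rps16, Rpsa and Rps6. Rps16 has no other probe set here. Most members were bright: 71 kept probe sets of 37 genes had a mean level over 12, 18 probe sets lay between 8 and 12, and 14 lay under 8. The ES identity of the cultures was checked on 12 ES markers, of which 11 were measured, all over a level of 4 in every array. Their summed linear intensity was 50916 and 48549 in W4, 65008 and 55303 in ki/+, and 64286 and 48331 in ki/ki, so that ki/ki replicate 2 was the lowest.

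With all 6 arrays in 1 limma fit, no member passed an adjusted p of 0.05 in any contrast, and no probe set of the 37950 did either (0.0% for ki/ki against W4, 0.0% for ki/+ against W4 and 0.0% for ki/ki against ki/+). At an unadjusted p below 0.05, 3 members (2.91%) passed for ki/ki against W4, beside 8.94% of all probe sets. For ki/+ against W4 there were 3 (2.91%, beside 10.5%), and for ki/ki against ki/+ there were 4 (3.88%, beside 10.3%). An exact permutation test of 2 arrays against 2 cannot go below p = 0.333, so no single value can be settled by it.

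Without a call for any member, the ki/ki cells still showed the members mostly below wild type: 81 of the 103 probe sets (78.6%) had a lower mean in ki/ki than in W4, beside 52.3% of all probe sets. The median difference was -0.21 for the members and -0.01 for all probe sets, and the members ranged from -1.19 to 0.85. In 35 members (34.0%) both ki/ki arrays lay below both W4 arrays, beside 21.2% of all probe sets, and in 9 (8.74%) both lay above, beside 17.3%. The ki/+ cells showed no such lean. Of the members, 52 were above and 51 below W4, and the median was 0.00 beside 0.02 for all probe sets. Both ki/+ arrays lay above both W4 arrays in 25 members (24.3%, beside 28.0%) and below them in 23 (22.3%, beside 26.2%). Both comparisons use the same W4 arrays. For ki/ki against ki/+ the median was -0.20 for the members and -0.04 for all probe sets. In this contrast 81 members (78.6%) were lower, beside 56.6% of all probe sets.

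The lower values lay in 1 of the 2 ki/ki arrays. Against the mean of both W4 arrays, the members' median was 0.03 in ki/+ replicate 1, -0.04 in ki/+ replicate 2, -0.01 in ki/ki replicate 1 and -0.38 in ki/ki replicate 2. The same medians over all kept probe sets were 0.02, 0.01, -0.01 and -0.03. In ki/ki replicate 2, 79 members (76.7%) lay below both W4 arrays, beside 44.7% of all probe sets. More than 0.5 below the W4 mean lay 41 members (39.8%), beside 7.94% of all. In ki/ki replicate 1 there were 4 such members (3.88%), beside 9.03% of all. The members' median was thus near wild type in the other 3 knock-in arrays, and the lower ki/ki mean came mainly from this array.

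**Figure D1:**
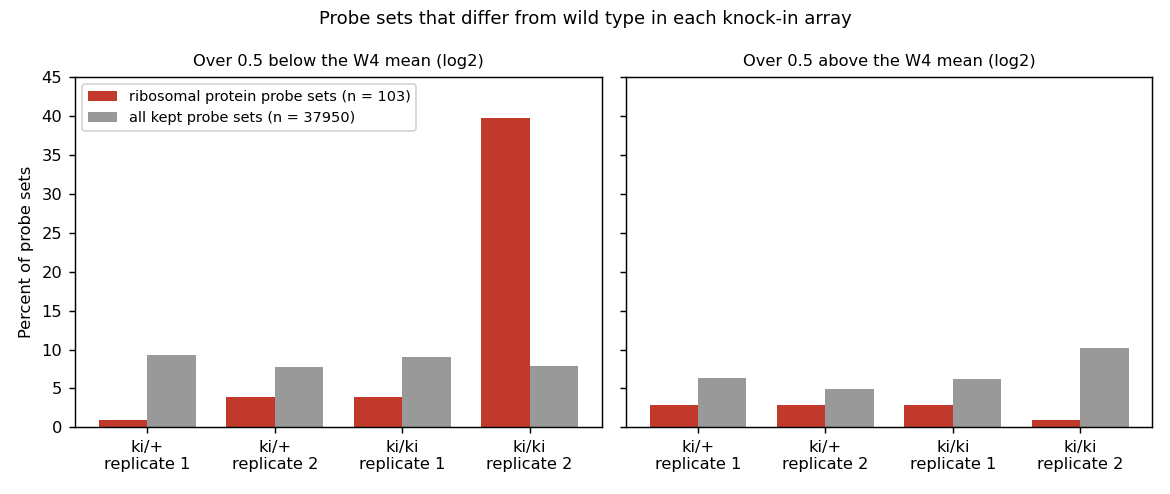
Percent of probe sets whose log2 intensity lay more than 0.5 below (left) or above (right) the mean of both W4 arrays in each knock-in array, for the 103 ribosomal protein probe sets (red) and all 37950 kept probe sets (grey). In ki/ki replicate 2, 39.8% of the ribosomal protein probe sets lay that far below W4 against 7.94% of all, and in the other 3 arrays their share was under that of all.

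The spread between replicate arrays shows the same. The median distance between the replicates of a genotype was 0.03 for the members in W4, 0.10 in ki/+ and 0.39 in ki/ki. Over all kept probe sets it was 0.11, 0.17 and 0.30. Members were thus closer between replicates than probe sets at large in W4 and ki/+, and farther apart in ki/ki, where 43 (41.7%) differed by more than 0.5 beside 27.3% of all probe sets. Of the 71 bright members, 71 lay within 0.25 of the W4 mean in ki/ki replicate 1, 69 in ki/+ replicate 1 and 70 in ki/+ replicate 2, against 19 in ki/ki replicate 2.

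Leaving out either ki/ki array moved the calls. Without ki/ki replicate 1, so with replicate 2 as the lone ki/ki array and its spread taken from the other genotypes, 27 members passed for ki/ki against W4, 26 of them lower and 1 higher, beside 4.73% of all probe sets. Among them were Rpl37 at -2.25 (limma adjusted p = 0.0158), Rps27l at -1.03 (adjusted p = 0.0226) and, as the higher one, Rps24 (1455195_at) at 0.85 (adjusted p = 0.043). Without ki/ki replicate 2, 3 passed, beside 2.76% of all: Rpl27a (1437729_at) was higher by 1.09 (limma adjusted p = 0.0472), and the Rps20 probe sets 1421935_at and 1450417_a_at were lower, by -0.96 (adjusted p = 0.0458) and -1.01 (adjusted p = 0.0495). For ki/ki against ki/+, 32 passed without ki/ki replicate 1, of which 31 were lower, beside 13.2% of all. With only the W4 and ki/+ arrays in the fit, 1 member passed for ki/+ against W4, beside 3.38% of all. It was Rps25 (1430978_at), higher in ki/+ by 0.68 (adjusted p = 0.0444).

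Marker and control values of ki/ki replicate 2 are given beside these results. The summed intensity of 24 fibroblast markers, all 24 over a level of 4 in every array, was 89427 in it, 35749 in ki/ki replicate 1, 37016 and 42551 in the W4 arrays and 14015 and 25603 in the ki/+ arrays. By gene, their median difference from the W4 mean was 1.26 in ki/ki replicate 2, and 2 of the 24 (S100a4 and Mgp) lay below that mean. The array control for the B1 repeat read 10.62 in it and 11.97 to 13.07 in the other arrays. The difference between the 3′ and 5′ control probe sets of actin, 0.27 in it, was close to the 0.31 and 0.28 of the W4 arrays. The part of feeder content and of the B1 signal in the members' values was not tested. In bulk RNA, fewer cells of a type and less RNA per cell cannot be told apart.

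The subunits had similar values in ki/ki replicate 2. The core members of the large subunit had a median of -0.38 with 16 of 42 probe sets over 0.5 lower, and those of the small subunit -0.38 with 19 of 50. With 1 probe set a gene, the brightest, the differences in this array ran from -2.25 for Rpl37 to 0.29 for Rpl12.

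**Figure D2:**
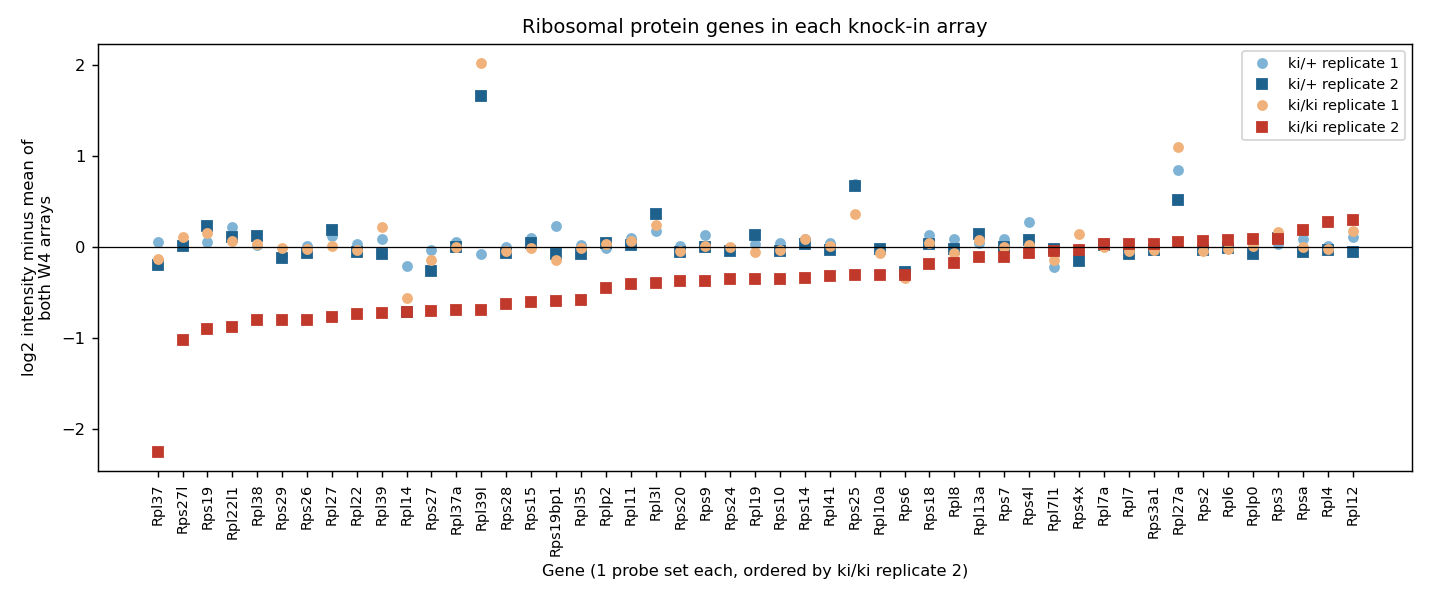
Log2 intensity minus the mean of both W4 arrays for 49 genes, each by its brightest kept probe set, in the 4 knock-in arrays, ordered by the value in ki/ki replicate 2. The values of ki/ki replicate 2 run from -2.25 (Rpl37) to 0.29 (Rpl12), while most genes lie close to 0 in the other 3 arrays, with Rpl39l, Rpl27a and Rps25 as the highest points.

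At the low end stood Rpl37, a zinc-binding protein of the large subunit. Its level was 11.47 and 11.47 in W4, 11.52 and 11.27 in ki/+, and 11.34 and 9.22 in ki/ki. The ki/ki replicate 2 array stood alone, and the genotype difference of -1.19 (SE 0.604, limma adjusted p = 0.639) was smaller than the distance between the ki/ki replicates. Rpl38, a small protein of the large subunit that in mice is required for normal patterning of the axial skeleton, measured 13.95 and 13.94 in W4, 13.97 and 14.07 in ki/+, and 13.97 and 13.14 in ki/ki. Rps29, a zinc-binding protein of the small subunit, measured 14.09 and 14.08 in W4, 14.02 and 13.98 in ki/+, and 14.02 and 13.05 in ki/ki by 1415833_x_at. For Rps29 all 4 knock-in arrays lay below both W4 arrays, though 3 of them by little, and the ki/ki difference was -0.55 (SE 0.299, adjusted p = 0.66).

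Rpl27, a large subunit protein, was lower in ki/ki replicate 2 by all 3 of its probe sets. By 1453096_x_at it measured 12.59 and 12.54 in W4, 12.58 and 12.64 in ki/+, and 12.54 and 10.95 in ki/ki. By 1448217_a_at the ki/ki arrays measured 12.52 and 11.07, against 12.49 and 12.38 in W4, and ki/+ measured 12.71 and 12.86. The first differs from W4 by -0.82 (SE 0.460, limma adjusted p = 0.672) and the second by -0.64 (SE 0.424, adjusted p = 0.727). By 1416099_at the ki/ki replicate 2 array differed from the W4 mean by -0.78, and ki/ki replicate 1 at 13.51 lay between the W4 arrays at 13.54 and 13.48.

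At the other end of the order stood Rpl12, a protein at the base of the stalk of the large subunit. It measured 9.14 and 9.24 in W4, 9.30 and 9.13 in ki/+, and 9.36 and 9.48 in ki/ki. Both ki/ki arrays lay above the others. Next came Rpl4, which lines the exit tunnel for new proteins. Rpl4 measured 13.97 and 14.00 in W4, 13.99 and 13.95 in ki/+, and 13.96 and 14.26 in ki/ki. Rpsa, which is also known as the laminin receptor, measured 13.86 and 13.86 in W4, 13.95 and 13.80 in ki/+, and 13.86 and 14.04 in ki/ki. In both Rpl4 and Rpsa, ki/ki replicate 2 was the highest array. Rplp0, the base of the P stalk that recruits elongation factors, measured 13.96 and 13.97 in W4, 13.96 and 13.88 in ki/+, and 13.97 and 14.05 in ki/ki. Its ki/ki difference was 0.04 (95% interval -0.29 to 0.38, limma adjusted p = 0.96), and its stalk partner Rplp2 was -0.46 from W4 in ki/ki replicate 2.

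Genes of short and of long ribosomal proteins are set side by side next. Both lists were put together after the values had been seen, from general knowledge of protein size and not from computed lengths, so the counts carry no test. The 10 genes of short ribosomal proteins (Rpl37, Rpl37a, Rpl38, Rpl39, Rpl39l, Rpl41, Rps27, Rps27l, Rps28 and Rps29) all lay below the W4 mean in ki/ki replicate 2, with a median of -0.72 and a range of -2.25 to -0.32. The weakest fall of the 10 was that of Rpl41, the smallest of them. The 12 measured genes of long ones (Rpl4, Rpl6, Rpl7, Rpl7a, Rpl8, Rplp0, Rps2, Rps3, Rps3a1, Rps4x, Rps6 and Rpsa) had a median of 0.05 and a range of -0.31 to 0.28, with 3 of them (Rps6, Rpl8 and Rps4x) below the W4 mean. In ki/ki replicate 1 the medians were 0.00 and -0.02, with Rpl39l at 2.01. Genes in neither list also stood near the ends: Rpl12 was the highest at 0.29, and Rps19 at -0.90, Rps26 at -0.81, Rpl27 at -0.78, Rpl22 at -0.74 and Rpl14 at -0.72 were among the lowest. A list of genes of other short proteins was also put together after the values had been seen, so its count carries no test either. Most of these genes were low in this array too. Of 19 measured genes of small respiratory chain subunits and other short proteins (such as Cox6c, Ndufa1 and Tomm7), 18 lay below the W4 mean, with a median of -1.49, and Cox7c at 0.73 was the exception.

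**Figure D3:**
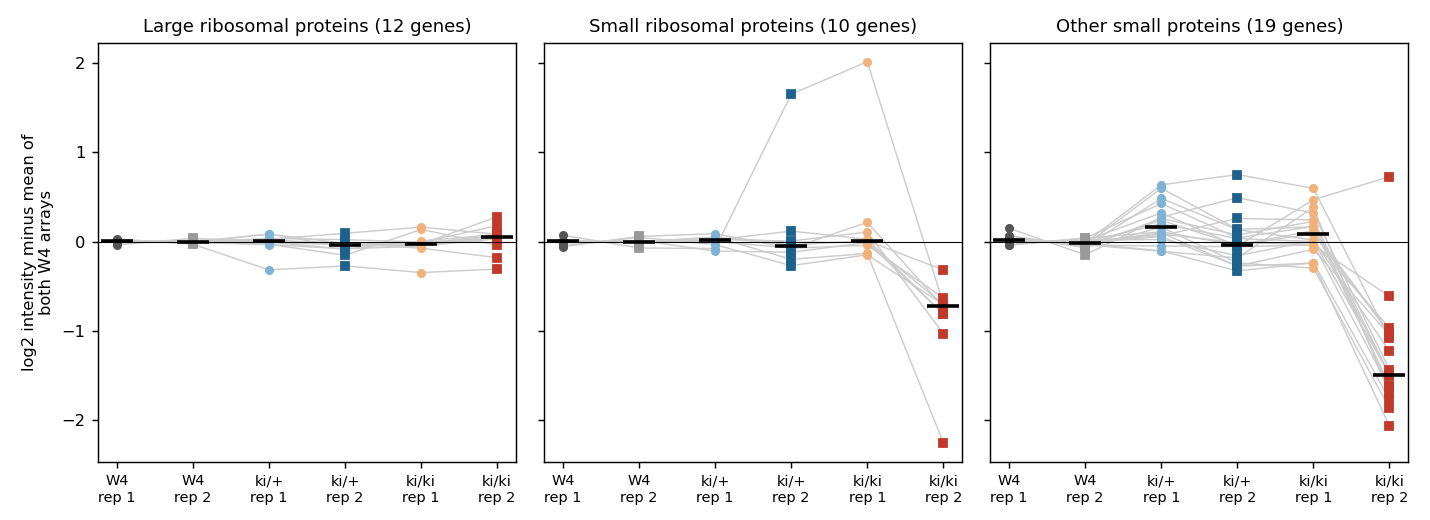
Log2 intensity minus the mean of both W4 arrays in all 6 arrays for 12 large ribosomal proteins, 10 small ribosomal proteins and 19 other small proteins, with each gene as a grey line and the median as a black bar. The bars of ki/ki replicate 2 stand at 0.05, -0.72 and -1.49; Rpl39l is the small ribosomal protein that reads 1.65 in ki/+ replicate 2 and 2.01 in ki/ki replicate 1; the lists were chosen after the values were seen.

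The members whose genes are mutated in human Diamond-Blackfan anaemia, a failure of red cell production, were low as well in ki/ki replicate 2. All 11 measured genes of 19 lay below the W4 mean there, with a median of -0.63, beside 31 of 42 core ribosomal protein genes (median -0.35) and 8760 of 16706 genes overall (median -0.02). Of the 11, Rps27, Rps28 and Rps29 are also among the short proteins above. Rps19, the most often mutated gene of that disease, measured 13.55 and 13.51 in W4, 13.57 and 13.76 in ki/+, and 13.68 and 12.62 in ki/ki. Its replicates in ki/ki stood on opposite sides of W4. Fau, a small subunit protein that does not carry an Rps symbol, was -0.79 in ki/ki replicate 2.

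Genes of related machinery are given beside the members by count and median. Of 40 ribosome assembly genes 28 were below W4 in ki/ki, beside 8627 of 16706 genes. The medians were -0.11 and -0.01. In ki/ki replicate 1, 29 of the 40 lay below the W4 mean, with a median of -0.16. In ki/ki replicate 2, 24 did, with a median of -0.06. The 19 measured translation factors had a median of 0.00 in ki/ki against W4, with 9 above and 10 below, and of 0.16 in ki/ki replicate 2. The 76 mitochondrial ribosomal proteins had a median of -0.24 in ki/ki against W4 and 0.20 in ki/+ against W4, where 66 of 76 were above, beside 9032 of 16706 genes and a median of 0.03 overall. Their median was -0.02 in ki/ki replicate 1 and -0.35 in ki/ki replicate 2, where 62 of 76 lay below the W4 mean, so that the ki/ki median rests on that array as it does for the core cytosolic genes (-0.35 there). None of these lists had a called gene.

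Single members went their own way. Rps24, a small subunit protein, had probe sets on opposite sides of W4 for ki/ki. Of its 6 kept probe sets, only 1455195_at had a higher mean in ki/ki than in W4, and the others were lower. By 1455195_at it measured 8.63 and 8.85 in W4, 8.88 and 8.95 in ki/+, and 9.59 and 9.59 in ki/ki. Both ki/ki arrays lay above all others, at a difference of 0.85 (SE 0.150, limma adjusted p = 0.211, the smallest among the members). By 1456628_x_at the same gene measured 13.13 and 13.19 in W4, 13.06 and 13.08 in ki/+, and 13.09 and 12.12 in ki/ki, a difference of -0.56 (SE 0.301, adjusted p = 0.659). The probe sets of Rps24 differ, and which transcripts each reads is not given in the files.

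**Figure D4:**
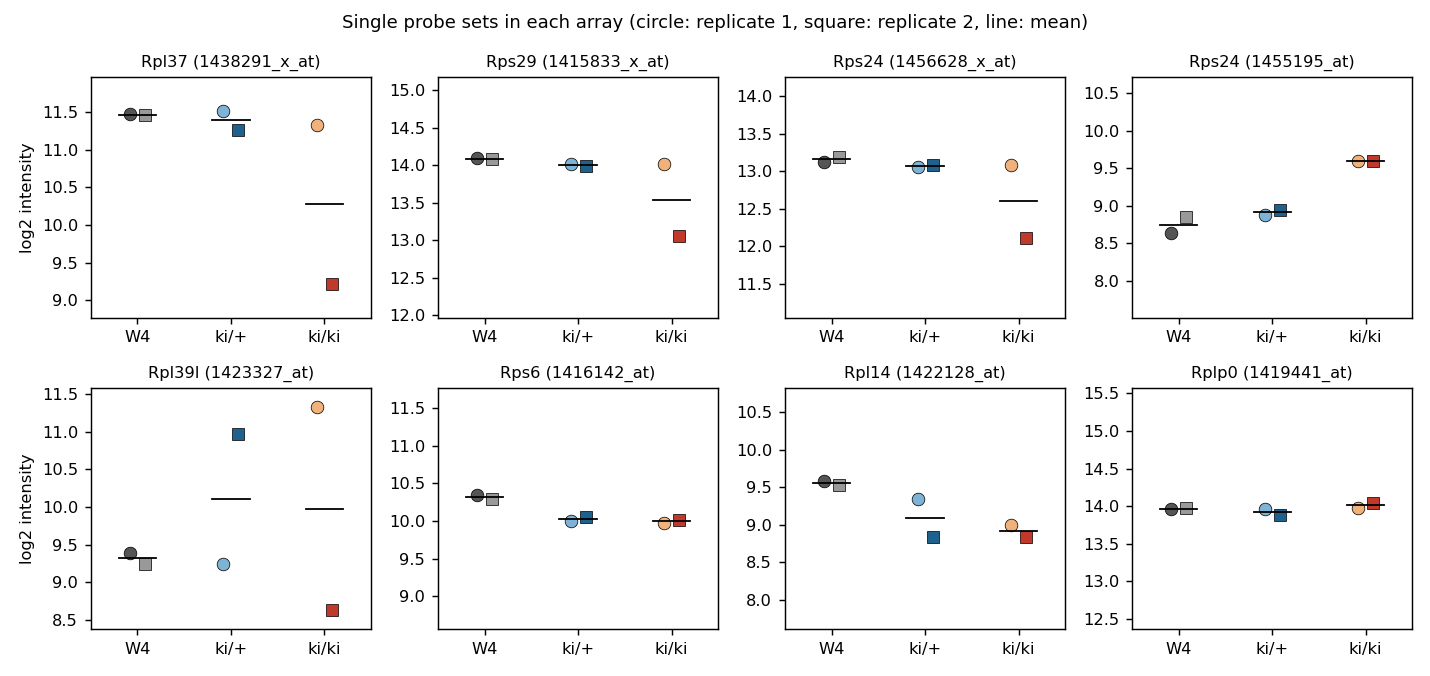
Log2 intensity of 8 probe sets in each array, with circles for replicate 1, squares for replicate 2 and a line at the mean; every panel spans the same 3.2 log2 units around its own centre. Rpl37, Rps29 and Rps24 (1456628_x_at) are far lower in ki/ki replicate 2 than in the other arrays. For Rps29 and this Rps24 probe set the other knock-in arrays also lie below both W4 arrays, by little. Rps24 (1455195_at) is high in both ki/ki arrays, and Rpl39l is high in ki/+ replicate 2 and ki/ki replicate 1.

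Rps9, a small subunit protein, also had probe sets on both sides. By 1434624_x_at it measured 13.50 and 13.39 in W4, 13.52 and 13.43 in ki/+, and 13.54 and 12.49 in ki/ki. By 1426958_at it measured 8.29 and 8.45 in W4, 7.79 and 8.37 in ki/+, and 8.78 and 8.78 in ki/ki, so that here both ki/ki arrays lay above all others. Across the 22 genes with more than 1 kept probe set, probe sets stood on both sides of W4 in 6 genes for ki/ki and in 10 for ki/+. Rps10 spanned -0.34 to 0.25 for ki/ki. The median span between the probe sets of a gene was 0.23 and 0.15.

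Paralog copies were given beside their core genes. Rpl39l, a copy of the X-linked Rpl39 that is known from testis, measured 9.39 and 9.25 in W4, 9.24 and 10.97 in ki/+, and 11.33 and 8.62 in ki/ki. It was high in 1 array of each knock-in genotype, so the differences of 0.66 in ki/ki and 0.79 in ki/+ (limma adjusted p = 0.885 and 0.812) rest on those arrays. Rpl39 measured 6.58 and 6.69 in W4, 6.73 and 6.56 in ki/+, and 6.85 and 5.91 in ki/ki. Rps27l, a copy of Rps27 known as a p53 target, measured 13.15 and 13.14 in W4, 13.17 and 13.15 in ki/+, and 13.25 and 12.11 in ki/ki, and Rps27 was -0.71 in ki/ki replicate 2. Rpl22l1 was -0.88 and Rpl22 -0.74 (1453118_s_at) in that array. In these 3 pairs both genes were low in ki/ki replicate 2, except by the dimmer Rpl22 probe set 1448398_s_at, at 0.09. Rpl3l, the muscle copy of Rpl3, lay near the floor of the filter, between 3.55 and 4.31. Rps4x, an X-linked small subunit protein, kept within 13.81 and 14.10.

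In 15 members (14.6%) all 4 knock-in arrays lay below both W4 arrays, beside 10.2% of all probe sets, and in 3 (2.91%) they lay above, beside 9.66%. Rps6 measured 10.35 and 10.29 in W4, 10.01 and 10.05 in ki/+, and 9.98 and 10.01 in ki/ki. The groups did not overlap, and the difference was -0.33 in ki/ki (SE 0.138, limma adjusted p = 0.561) and -0.29 in ki/+ (adjusted p = 0.518). Rpl14, a large subunit protein, measured 9.59 and 9.53 in W4, 9.34 and 8.84 in ki/+, and 8.99 and 8.84 in ki/ki. Rps20 followed by 1450417_a_at, at 5.998 and 5.990 in W4, 5.69 and 5.35 in ki/+, and 4.98 and 5.56 in ki/ki, and its bright probe set 1456436_x_at was low in ki/ki replicate 2 only, at 13.56. The 3 above W4 were Rpl27a (1419799_at), Rps24 (1455195_at) and Rps3, the last by 0.12 in ki/ki and 0.06 in ki/+. This Rpl27a probe set lay near the floor of the filter, between 3.72 and 4.08. Its gap between the W4 and the knock-in arrays was only 0.07. Both W4 arrays lay under the filter level of 4 for it, so it was kept through knock-in arrays only. The 18S rRNA control probe sets also separate the knock-in arrays from wild type, with means of 7.22 and 7.12 in W4 and 11.12 to 11.57 in the knock-in arrays. Their part in these values was not tested.

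Rpl27a, a large subunit protein, measured 10.18 and 10.38 in W4, 11.12 and 10.80 in ki/+, and 11.37 and 10.33 in ki/ki by 1437729_at. Only ki/ki replicate 2 overlapped W4, and the differences were 0.57 in ki/ki (limma adjusted p = 0.686) and 0.68 in ki/+ (adjusted p = 0.537). Rpl11 measured 13.56 and 13.56 in W4, 13.66 and 13.58 in ki/+, and 13.62 and 13.15 in ki/ki, and was low in ki/ki replicate 2 alone. Rps19bp1 measured 9.66 and 9.58 in W4, 9.85 and 9.54 in ki/+, and 9.47 and 9.03 in ki/ki, where both arrays lay below W4.

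In 3 members (2.91%, beside 3.91% of all probe sets) the ki/ki arrays and the ki/+ arrays lay on opposite sides of both W4 arrays: Rpl19, Rplp0 and Rps10 (1436384_at).

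Rps25, a small subunit protein, had its highest values in ki/+. It measured 9.62 and 9.79 in W4, 10.39 and 10.38 in ki/+, and 10.07 and 9.39 in ki/ki. Both ki/+ arrays lay above all others, with a difference from W4 of 0.68 (SE 0.235, limma adjusted p = 0.405) and from ki/ki of -0.65 for ki/ki minus ki/+ (adjusted p = 0.448). Rpl41, the smallest ribosomal protein, had its lowest values in ki/+ by both of its dimmer probe sets. By 1433530_at it measured 8.29 and 8.57 in W4, 7.95 and 7.95 in ki/+, and 8.35 and 8.03 in ki/ki, a ki/+ difference of -0.48 (limma adjusted p = 0.435). By 1454639_x_at it measured 8.56 and 8.70 in W4, 8.34 and 8.03 in ki/+, and 8.49 and 8.53 in ki/ki, a ki/+ difference of -0.44 (adjusted p = 0.439). Its bright probe set 1455578_x_at differed by 0.00 in ki/+.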

How the data were processed

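Biotin-labelled RNA was measured on 6 arrays; arrays in number, not depth, limit the precision. The authors deposited linear intensity values after GCRMA with quantile normalization, and used limma, according to the series design text. The sources used here give no versions of these tools. Here log2 was taken, and limma 3.58.1 (R 4.3.3) fitted genotype to all 6 arrays with eBayes and Benjamini-Hochberg adjustment over 37950 probe sets (log2 over 4 in at least 2 arrays) at 0.05. Control probe sets (64) were left out. The 6 columns of another series in a second table were not used. Symbols came from the supplied probe table, promoters from RefSeq GRCm38.p6. Members and lists were chosen with earlier results of these data known. Named were the largest differences in each contrast, genes fixed for their role, non-overlapping members and genes with differing probe sets; others (such as Rpl4, Rpl12, Rpl38, Rps19, Rpsa) were chosen after their values were seen. Alternatives were a stricter filter or none, further quantile normalization, a trended and robust prior, centring on all probe sets, core members only, 1 probe set a gene, no _s_at or _x_at probe sets, the compared arrays alone, a replicate block and each array left out. The fit was tested on simulated data. For ki/ki against W4, it recovered 2% of changes of 1 log2 unit and 83% of changes of 2, with 4 false calls. So the lack of calls does not show that members are unchanged. Replicates are labelled independent experiments.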

Additional observations from a re-analysis of the deposited data

Results flagged for a closer look

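In 3 members (2.91%) the ki/ki arrays and the ki/+ arrays stood on opposite sides of both W4 arrays, beside 3.91% of all kept probe sets, so the share is near the background. Rpl19 (1416219_at) was higher in ki/+ at 13.92 and 14.02 and lower in ki/ki at 13.84 and 13.54, against 13.90 and 13.89 in W4, with a ki/ki minus ki/+ difference of -0.2833. Rplp0 (1419441_at) had a ki/ki minus ki/+ difference of 0.0881. Rps10 (1436384_at), a dim probe set of a small subunit gene, measured 6.65 and 6.85 in W4, 6.51 and 6.52 in ki/+, and 6.96 and 7.05 in ki/ki, with a difference of 0.4901 (limma adjusted p = 0.429). The other Rps10 probe sets were lower in ki/ki replicate 2. The sides themselves were not tested, and limma called none of the 3 for ki/ki against ki/+.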

How the results depend on the processing

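The count of called members ranged from 0 to 27 for ki/ki against W4 when single arrays were left out (27 without ki/ki replicate 1 and 3 without ki/ki replicate 2), from 0 to 1 for ki/+ against W4 (also 1 with only those 4 arrays) and from 0 to 32 for ki/ki against ki/+. The median difference ranged from -0.384 to -0.0065, from -0.0361 to 0.0257 and from -0.3932 to -0.0172. For ki/ki against W4, further quantile normalization moved it from -0.21 to -0.13. With only _at and _a_at probe sets it was -0.15. Of 50 named results, 39 kept their direction under all alternatives, and 11 turned when an array was left out: for ki/ki against W4, Rpl27 (1448217_a_at) ranged from -1.36 to 0.0817, Rpl39l from -0.69 to 2.01, Rpl11 from -0.41 to 0.0657, Rps4x from -0.0414 to 0.14, Rpl22l1 from -0.88 to 0.0635, Rps27l from -1.03 to 0.11, Rpl39 from -0.73 to 0.22, Rpl3l from -0.40 to 0.23, Rps9 (1434624_x_at) from -0.96 to 0.10 and Rpl22 (1448398_s_at) from -0.14 to 0.0874. For ki/+ against W4, Rpl39l ranged from -0.0776 to 1.65. Genes chosen after their values were seen are not among the 50. Of these, Rpl38 differed from the W4 mean by 0.03 and -0.81 in the ki/ki replicates, and Rps19 by 0.16 and -0.90. Rpl4 differed by -0.03 and 0.28, and Rpsa by -0.01 and 0.18. Their direction thus also turned between the ki/ki arrays, while Rpl12 was higher in both. The cause was not tested. With the replicate number as a block, 0 members were called in each contrast. Across probe sets, the deviations of same-numbered arrays from their genotype means had correlations of 0.0575, 0.144 and -0.0394. With 1 such deviation a genotype, these values cannot show whether the numbers pair the samples. The number of arrays, 2 a genotype, limits the precision.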
